A study of Mus musculus with 4 samples.

Results

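The MHC class II genes and Cd74, a set of 9 mouse genes, were followed through 4 RNA-seq libraries of regulatory T cells, which hold immune responses in check and depend on the transcription factor Foxp3. The members were named by symbol and found in the files through their gene identifiers, and all 9 were found among the 50600 genes counted. They were Cd74, Ciita, H2-Aa, H2-Ab1, H2-Eb1, H2-DMa, H2-DMb1, H2-Oa and H2-Ob. The 4 libraries formed 1 group of primary cells of mouse strain C57BL/6NJ, labelled as biological replicates 1 to 4, with no genetic change or added agent named, no second group and no sex or age given. The linked protocol covers CD4 T cell differentiation, and library names inside the files read activated and 72 h. The members were chosen by family with their TPM in these same 4 libraries known, so their levels are given as a description, and no level is tested.

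Class II molecules are pairs of an alpha and a beta chain that carry peptides from endosomes to the cell surface, where CD4 T cells read them. The invariant chain, made from Cd74, holds newly made pairs together and fills their groove, H2-DM helps to exchange its remnant for a peptide, and H2-DO restrains H2-DM. Transcription of the other members in B cells, dendritic cells and macrophages depends largely on Ciita. Ciita is a coactivator that binds no DNA itself and docks on factors at a shared promoter module. Activated mouse T cells are classically described as making little or no class II protein of their own.

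The shared module consists of an X box, read by the RFX complex, followed by a Y box, read by NF-Y. Stretches of promoter around the Y box are printed to show how closely the members resemble each other there, whatever their level in these cells. They come from RefSeq promoters of build GRCm38.p6, which run from 250 bases before to 50 bases after a gene's start. The capitals mark the letters GNAAC, taken for the core of the X box, and GATTGG, taken for that of the Y box, each read 5′ to 3′ on the gene's own strand.
H2-Aa, chr17:34287855-34287922, minus strand: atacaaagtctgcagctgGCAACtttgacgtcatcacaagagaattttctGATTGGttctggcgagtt
H2-Eb1, chr17:34305757-34305824, plus strand: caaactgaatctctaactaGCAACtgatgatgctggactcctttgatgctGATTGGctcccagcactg
H2-DMb1, chr17:34153079-34153146, plus strand: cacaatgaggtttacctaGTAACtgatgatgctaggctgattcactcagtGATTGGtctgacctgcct
H2-Oa, chr17:34092285-34092352, plus strand: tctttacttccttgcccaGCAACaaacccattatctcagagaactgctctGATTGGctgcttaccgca
H2-Ob, chr17:34238797-34238864, plus strand: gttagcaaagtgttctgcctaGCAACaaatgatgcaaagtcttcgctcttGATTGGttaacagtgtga

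Both letter groups were searched on both strands, were chosen after these promoters had been read, and do not overlap each other where they are marked. In H2-Aa, H2-DMb1 and H2-Oa the X core began 32 bases before the Y core, in H2-Eb1 31 and in H2-Ob 29. GNAAC alone was present in 84.8% of all 32851 promoters of the table and GATTGG alone in 16.1%. GNAAC starting 20 to 40 bases before GATTGG was present in 1.21% on either strand and in 0.597% on the gene's own strand. Of the 6 members with a promoter in the table, 5 held the pair. The exception was H2-DMa, whose 2 RefSeq starts lay 12350 and 9664 bases from the gene start in the counting annotation. The promoter at the start 9664 bases away held GATTGG without GNAAC starting 20 to 40 bases before it, and is not shown. Cd74, Ciita and H2-Ab1 are not shown. The class II genes H2-Eb2 and H2-DMb2, which are not members, are shown for comparison with H2-Eb1 and H2-DMb1. In H2-DMb2 the pair was not matched, and its RefSeq start lay 1942 bases from the gene start in the counting annotation.
H2-Eb2, chr17:34325524-34325591, plus strand: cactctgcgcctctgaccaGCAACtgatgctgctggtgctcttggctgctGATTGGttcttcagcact
H2-DMb2, chr17:34145108-34145175, plus strand: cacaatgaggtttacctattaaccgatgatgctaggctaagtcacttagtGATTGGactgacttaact
A match of letters is a description of the sequence and does not show that a factor was bound.

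The files held raw fragment counts, and total counts per library ranged from 51460018 to 121477975. Levels are given in TPM, which divides each count by the gene's exon length and scales every library to the same total, so that levels of different genes can be set side by side. A count of 3 was taken as the floor, the limit that a count of 0 allows, and floors and intervals cover counting error only. The labels gave the same donor identifier for all 4 libraries, yet the libraries stood apart in sex-linked genes. Xist, which is made from an inactive X chromosome, was at 173 and 199 TPM in replicates 1 and 2 and at 0.592 and 0.758 TPM in replicates 3 and 4, and the Y-linked gene Eif2s3y was at 0.0874, 0.133, 46.7 and 62.7 TPM in replicates 1 to 4. Replicates 1 and 2 thus had the pattern of female cells and replicates 3 and 4 that of male cells, which cells of the same animal would not give. The labels do not say how many animals the cultures came from. Each SD over the 4 libraries covers both patterns, and the spread between libraries may be in part technical. Markers of the labelled cell type were present. All 7 genes of the list reached 1 TPM in every library, where 48.9% of all 21764 protein-coding genes did. Cd4 and Cd3e among them mark T cells more widely, and whether the others were particular to regulatory T cells was not tested. There was no library of other activated T cells to set these levels against. Il2ra, which encodes an interleukin-2 receptor chain, was at 2168 ± 242 TPM (SD, n = 4), Tnfrsf18, which encodes the receptor GITR, at 824 ± 122 TPM, Foxp3 at 448 ± 27.8 TPM and Ikzf4, which encodes the factor Eos, lowest at 124 ± 4.53 TPM.

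The set was very uneven. Cd74 was abundant, H2-DMa, H2-Oa, H2-Ab1 and H2-Eb1 were at intermediate levels, and H2-Ob, H2-DMb1, H2-Aa and Ciita were at or under about 1 TPM. In all, 5 of 9 members reached 1 TPM in every library, where 48.9% of all 21764 protein-coding genes did. The median member was H2-Eb1 at 9.79 TPM, and the median protein-coding gene was at 1.04 TPM. These are bulk RNA values, in which fewer cells that make a transcript and less of it per cell cannot be told apart.

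**Figure D1:**
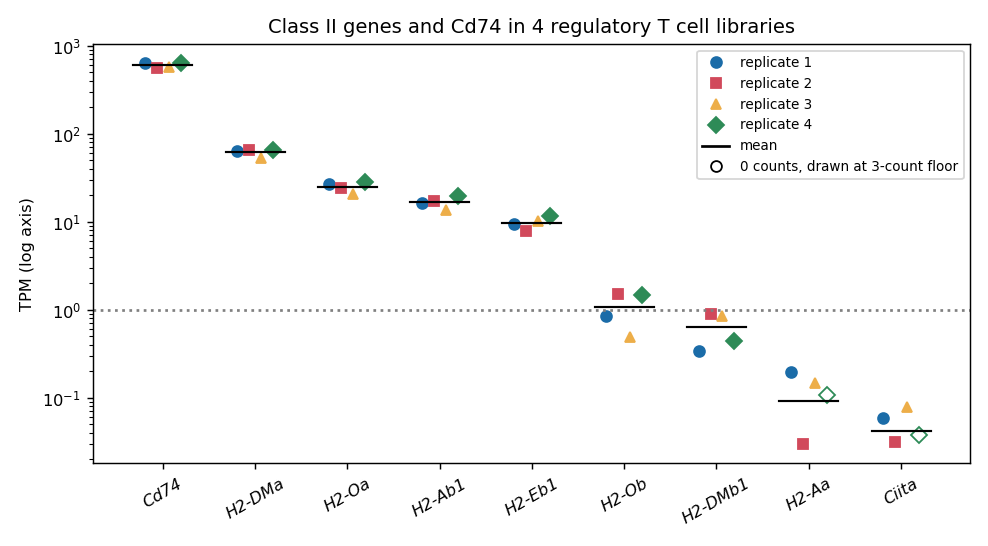
TPM (vertical log axis) of each of the 9 genes in each of the 4 libraries, with 1 symbol per replicate, a black line at the mean and open symbols for 0 counts, drawn at the 3-count floor. Cd74 sat near 600 TPM, and the genes right of H2-Eb1 lay around or under the dotted line at 1 TPM.

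Cd74 (ENSMUSG00000024610.14, mm10 chromosome 18, 60803848 to 60812646, plus strand) encodes the invariant chain, which is also a surface receptor for the cytokine MIF. It had 636, 552, 578 and 634 TPM in replicates 1 to 4, a mean of 600.1 ± 41.9 TPM (SD, n = 4), from 13487 to 32055 counts per library. The 4 values were close together, with the highest 1.15 times the lowest. Only 0.937% of protein-coding genes had a higher mean. Cd74 made up 83.9 ± 1.27% of the summed TPM of the 9 genes. The protein-coding genes whose levels over the 4 libraries were nearest to those of Cd74, by the root mean square difference of log2(TPM + 0.1), were Cyc1 at 597 ± 34.2 TPM, Cox4i1 at 587 ± 40.8 TPM and Atp5d at 619 ± 47.04 TPM, with differences of 0.025, 0.045 and 0.052.

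Ciita (ENSMUSG00000022504.9, chromosome 16, 10488178 to 10527564, plus strand), the coactivator of the set, had the lowest mean TPM, although its values overlapped those of H2-Aa. It had 11, 3, 9 and 0 counts in replicates 1 to 4, which is 0.0586, 0.0316, 0.0777 and 0 TPM, and the floor in replicate 4 was 0.0379 TPM. Replicates 2 and 4 were at or under the floor of 3 counts, and replicates 1 and 3 were above it with 11 and 9 counts. Cd74 exceeded Ciita per length 10859-fold in replicate 1, 17469-fold in replicate 2 and 7437-fold in replicate 3. The 95% exact binomial intervals of these ratios, for counting error only, were 6068 to 21754, 5976 to 84717 and 3917 to 16266. In replicate 4, where Ciita had no count, the lower limit of the same kind of interval was 13622-fold. Taking 3 counts for Ciita in that library gave 16752-fold. Ciita has several promoters, and counts per gene cannot tell which of them gave these few fragments. Its exons share 111 bases with Dexi on the opposite strand, and the counting was set to use strand.

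Among the classical chains, which form the peptide-presenting molecules, the beta chain of I-A was present almost without its alpha chain. H2-Aa (ENSMUSG00000036594.14, chromosome 17, 34282744 to 34287827, minus strand), the alpha chain, had 13, 1, 6 and 0 counts in replicates 1 to 4. These counts gave 0.194, 0.0295, 0.145 and 0 TPM, and in replicate 4 the floor was 0.106 TPM. Replicate 1 weighs on this gene, since its mean was 0.0922 TPM over all 4 libraries and 0.0583 TPM without replicate 1. H2-Ab1 (ENSMUSG00000073421.5, chromosome 17, 34263209 to 34269418, plus strand), the beta chain, had 957, 510, 486 and 490 counts, or 16.4, 17.2, 13.5 and 19.8 TPM. The log2 difference of H2-Aa minus H2-Ab1 was -6.58 ± 0.93 (SD, n = 4), negative in 4 of 4 libraries. Per length, H2-Aa stood at 0.0119 of H2-Ab1 in replicate 1, 0.00171 in replicate 2 and 0.0108 in replicate 3, with 95% exact binomial intervals of 0.0063 to 0.0204, 4.3e-05 to 0.00959 and 0.00394 to 0.0236. No exon of either gene overlapped another gene in the counting annotation.

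H2-Eb1 (ENSMUSG00000060586.10, chromosome 17, 34305877 to 34316199, plus strand) encodes the beta chain of I-E. It had 9.50, 7.76, 10.3 and 11.6 TPM in replicates 1 to 4, a mean of 9.79 ± 1.60 TPM (SD, n = 4). H2-Eb1 lay below H2-Ab1 in 4 of 4 libraries, by a log2 difference of -0.77 ± 0.31, and the ranges of the pair did not overlap. Mice of the H-2b haplotype, to which C57BL/6 belongs, carry a defective gene for the alpha chain of I-E. That gene, listed as H2-Ea-ps, had 0 counts in all 4 libraries. The neighbouring beta chain gene H2-Eb2 was at 7.57 ± 1.19 TPM.

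The chains of H2-DM, the peptide editor, were also unequal, this time with the alpha chain high. H2-DMa (ENSMUSG00000037649.9, chromosome 17, 34135182 to 34139101, plus strand) had 63.3, 65.7, 52.9 and 65.2 TPM in replicates 1 to 4, a mean of 61.8 ± 5.98 TPM (SD, n = 4). H2-DMb1 (ENSMUSG00000079547.3, chromosome 17, 34153072 to 34160230, plus strand), a beta chain, had 0.339, 0.894, 0.856 and 0.446 TPM, from 18, 24, 28 and 10 counts. The alpha chain exceeded it in 4 of 4 libraries by a log2 difference of 6.48 ± 0.66. Mice have a second beta chain gene, H2-DMb2, which was higher than H2-DMb1 at 3.15 ± 0.620 TPM. The beta chain genes together reached 4.02, 3.48, 4.54 and 3.08 TPM in replicates 1 to 4. H2-DMa was 15.7, 18.8, 11.6 and 21.2 times that sum.

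Of all 50-base stretches of annotated H2-DMb1 transcripts, 22.7% were also found in transcripts of other genes, most often H2-DMb2. The level of H2-DMb1 is thus uncertain where reads could not be placed on 1 of the pair. The stretches came from a later GENCODE release than the counts and were matched on both strands. For H2-DMa the share was 8.43%, most often with the neighbouring gene Brd2, which lies on the opposite strand. In the counting annotation no exon of H2-DMa overlapped another gene. For H2-Oa it was 15.5%, most often with BC051537, and for Ciita 1.46%, most often with Dexi, which lie on the opposite strand. The counting was set to use strand. For H2-Aa the share was 0.514%, and for Cd74, H2-Ab1, H2-Eb1 and H2-Ob it was 0%. In the counting annotation, exons of Cd74 share 12 bases with Mir5107 on the same strand.

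The chains of H2-DO, the inhibitor of H2-DM, followed the same order. H2-Oa (ENSMUSG00000024334.8, chromosome 17, 34092340 to 34095234, plus strand), the alpha chain, had 26.9, 24.2, 20.8 and 28.4 TPM in replicates 1 to 4, a mean of 25.1 ± 3.36 TPM (SD, n = 4). H2-Ob (ENSMUSG00000041538.15, chromosome 17, 34238903 to 34245907, plus strand), the beta chain, had 0.843, 1.51, 0.489 and 1.47 TPM. Replicates 2 and 4 were above 1 TPM for H2-Ob, and replicate 3 was lowest. H2-Oa exceeded H2-Ob in 4 of 4 libraries by a log2 difference of 4.52 ± 0.57. Exons of H2-Oa share 200 bases with BC051537 on the opposite strand.

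**Figure D2:**
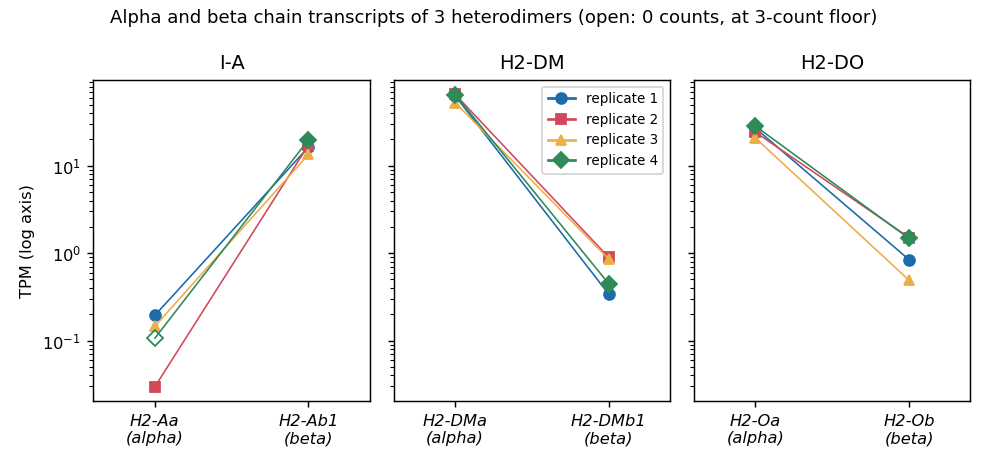
TPM (vertical log axis) of the alpha chain gene at the left and the beta chain gene at the right of I-A, H2-DM and H2-DO, with lines joining the values of 1 library and an open symbol for 0 counts at the 3-count floor. In every library H2-Aa lay far below H2-Ab1, while H2-DMa lay far above H2-DMb1 and H2-Oa far above H2-Ob.

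H2-DMa exceeded H2-Oa, so that the alpha chain of the editor was above that of its inhibitor, by a log2 difference of 1.30 ± 0.11 (SD, n = 4) in 4 of 4 libraries. In the order of the 9 levels, from Cd74 through H2-DMa, H2-Oa, H2-Ab1, H2-Eb1, H2-Ob, H2-DMb1 and H2-Aa to Ciita, neighbours had separate ranges except at 2 steps. H2-Ob overlapped H2-DMb1, with a log2 difference of 0.66 ± 0.96 and a higher value in 3 of 4 libraries. H2-Aa overlapped Ciita, with a difference of 0.33 ± 0.43 and a higher value in 2 of 4 libraries. H2-Oa and H2-Ab1 were only just separate, since the lowest value of H2-Oa was 20.8 TPM and the highest of H2-Ab1 was 19.8 TPM, but H2-Oa was higher in 4 of 4 libraries, by 0.58 ± 0.10. A pseudocount of 1 TPM drew the low genes together, and the difference then was 9.17 for Cd74 and Ciita, -4.01 for H2-Aa and H2-Ab1, 5.27 for H2-DMa and H2-DMb1 and 3.67 for H2-Oa and H2-Ob, with the same sign as before. Without length normalization the difference of H2-Oa and H2-Ob was 3.26, and that of Cd74 and Ciita 10.6.

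The 7 H2 members lie together on chromosome 17, which allows their levels to be read along the chromosome. From H2-Oa to H2-Ea-ps, 34092340 to 34344643 in the files' mm10 coordinates, the annotation holds 15 genes that are protein-coding or class II genes. The 5 other genes of this stretch, which are the chromatin reader gene Brd2 and the class I peptide supply genes Psmb9, Tap1, Psmb8 and Tap2, all reached 1 TPM in every library. Their means lay between 30.3 TPM for Psmb9 and 336 TPM for Psmb8. Of the 7 members there, 4 reached 1 TPM in every library, where 48.9% of all 21764 protein-coding genes did. Low members stood directly beside higher ones. H2-DMb1 at 0.634 TPM and H2-Ob at 1.08 TPM flanked the 4 class I supply genes, and H2-Aa at 0.0922 TPM, or 0.0583 TPM without replicate 1, lay between H2-Ab1 at 16.7 TPM and H2-Eb1 at 9.79 TPM.

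**Figure D3:**
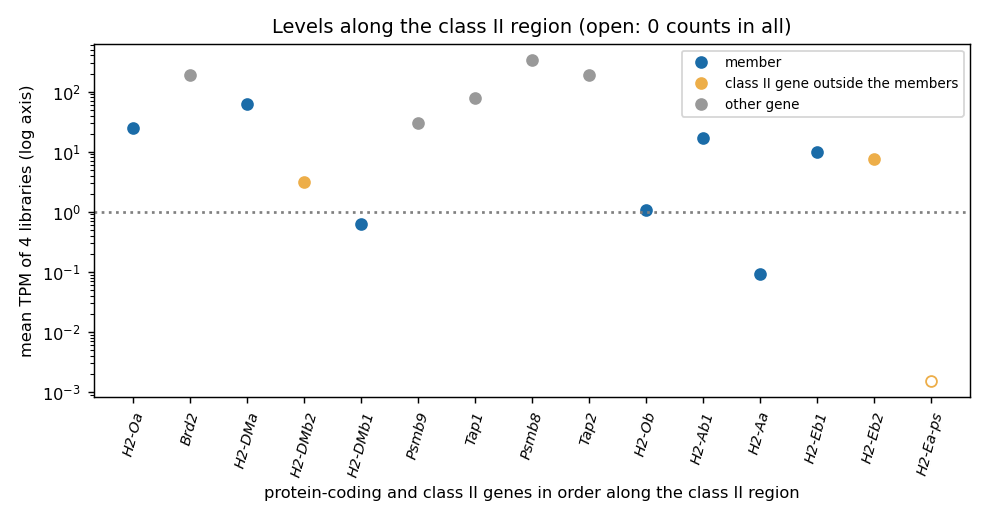
Mean TPM of 4 libraries (vertical log axis) for the 15 genes of the class II region in chromosomal order, with members, other class II genes and other genes in separate colours and an open symbol for 0 counts in all libraries. H2-Aa lay at 0.0922 TPM between neighbours at 16.7 and 9.79 TPM, and the 5 other genes were all at 30.3 TPM or above.

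The factors that bind the shared promoter module were present. All 7 of 7 reached 1 TPM in every library, with a list median of 31.6 TPM. For this list and those below, the share over all 21764 protein-coding genes was 48.9%. The NF-Y subunit genes Nfya (47.2 ± 1.79 TPM; SD, n = 4) and Nfyc (39.9 ± 1.77 TPM) were highest, and Rfxank, a subunit of the RFX complex whose human counterpart is mutated in a form of bare lymphocyte syndrome, was lowest at 17.3 ± 0.781 TPM. Ciita itself did not pass 0.0777 TPM in any library.

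Regulators of Ciita were uneven. Interferon gamma acts through its receptor, JAK kinases and IRF1 on a Ciita promoter, while PU.1 and IRF8 act on others and Blimp-1 represses the gene in plasma cells. Of the 11 regulators listed, 9 reached 1 TPM in every library, with a list median of 53.2 TPM. The highest were Irf8 at 795 ± 39.04 TPM (SD, n = 4) and the kinase gene Jak1 at 201 ± 12.3 TPM. Spi1, which encodes PU.1, was lowest, with 5, 0, 0 and 8 counts in replicates 1 to 4. Prdm1, which encodes Blimp-1, was the other gene under 1 TPM, at 0.333 ± 0.105 TPM.

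Genes that act on class II molecules after transcription were mostly present. The 7 endosomal processing genes all reached 1 TPM in every library, with a list median of 154 TPM. The thiol reductase gene Ifi30 (277 ± 13.6 TPM; SD, n = 4) and Ctss, the protease that trims the invariant chain in antigen-presenting cells (219.7 ± 21.3 TPM), were highest, and Ctsl, which trims it in thymic epithelium, was lowest at 22.6 ± 8.69 TPM. Of 3 genes of class II turnover, 2 reached 1 TPM. Cd83, which stabilizes surface class II, was at 166 ± 23.5 TPM and the ubiquitin ligase gene March8 at 3.80 ± 0.223 TPM. March1, the ligase that removes class II from the surface of dendritic and B cells, had 0 counts in all 4 libraries.

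Partners of the invariant chain as a MIF receptor were examined as well. Of 6 genes, 4 reached 1 TPM in every library, with a list median of 60.0 TPM. The ligand gene Mif was at 1335 ± 64.2 TPM (SD, n = 4) and the signalling partner gene Cd44 at 191 ± 18.6 TPM. The chemokine receptor gene Ackr3 had 0 counts in all 4 libraries. Receptors that bind class II on other cells were both present, with Cd4 at 656 ± 16.2 TPM and the inhibitory receptor gene Lag3 at 49.1 ± 6.36 TPM. Of the costimulatory genes of antigen-presenting cells, all 3 reached 1 TPM, with Cd80 at 164 ± 12.5 TPM, Cd40 at 19.3 ± 2.03 TPM and Cd86 at 11.3 ± 0.613 TPM.

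Markers of the cells that normally make class II were mostly near 0. Of 9 B cell markers, only Cd79b reached 1 TPM in every library, at 3.14 ± 0.672 TPM (SD, n = 4), and the summed level of the list ran from 3.78 to 5.34 TPM over the libraries. Cd79a, the partner of Cd79b in the B cell receptor, came next at 0.676 ± 0.360 TPM. Over all 4 libraries together, Ebf1 had 454 counts, Blnk 314, Cd79a 78, Pax5 8, Ms4a1 2, Fcer2a 1 and Cd22 0. Of 8 dendritic cell markers, Batf3 (19.9 ± 3.47 TPM) and Zbtb46 (4.51 ± 0.437 TPM) reached 1 TPM, the list summed to 21.5 to 29.3 TPM, and Clec9a, Siglech and Cd209a had 0 counts. Of 10 macrophage markers, Cd68 (4.51 ± 1.39 TPM) and Adgre1 (2.55 ± 0.860 TPM) reached 1 TPM, the list summed to 7.17 to 8.92 TPM, and Lyz2, C1qa, C1qb and Fcgr1 had 0 counts. The immunoglobulin gene Ighm, named after its values were seen, was at 354 ± 22.3 TPM. The summed level of the members ran from 669 to 761 TPM, or from 99.03 to 127 TPM without Cd74. The part of other cells in the levels of the members was not tested.

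**Figure D4:**
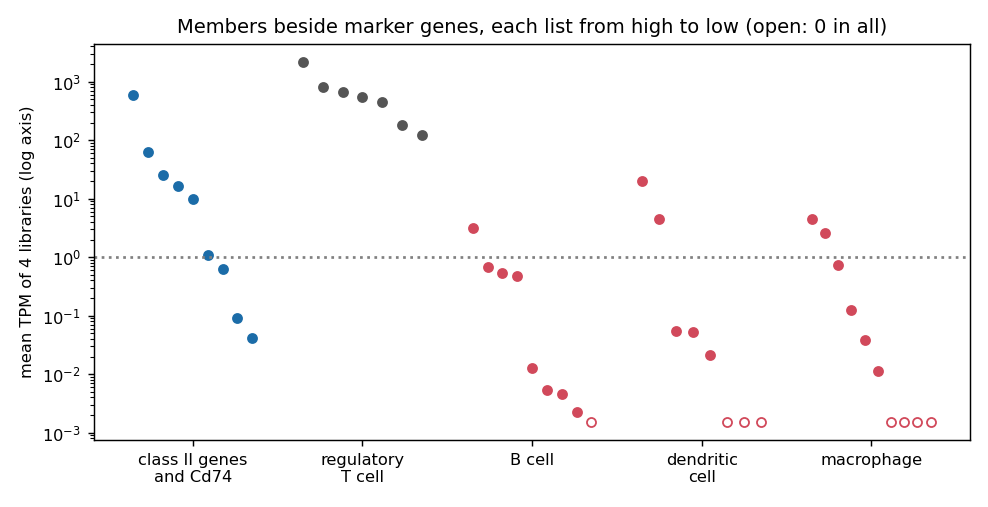
Mean TPM of 4 libraries (vertical log axis) for the members and for 4 lists of marker genes, each ordered from high to low, with open symbols for 0 counts in all libraries. All 7 genes of the regulatory T cell list reached the dotted line at 1 TPM in every library. Of the other lists, 1 of 9 B cell, 2 of 8 dendritic cell and 2 of 10 macrophage markers did. The share over all protein-coding genes was 48.9%.

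The spread between libraries was examined for each gene by its quasi-likelihood dispersion over the trend of genes of like abundance. Of the 9 members, 7 passed the filter on low counts, and Ciita and H2-Aa did not. The filter asked for enough counts in each of the 4 libraries, so genes nearly absent from some libraries were not tested. The edgeR quasi-likelihood dispersion test called 0 of these 7, with 0 at an unadjusted p under 0.05. Over all 13625 tested genes it called 1, which is 0.00734%, and 4.7% had an unadjusted p under 0.05. A count of 0 in 7 is what that background gives, so it does not show that the members were stable. DESeq2 and limma-trend also called 0 members. The largest ratio was that of H2-Ob, whose dispersion was 3.41 times the trend (unadjusted p = 0.0874 and adjusted p = 0.965 in the edgeR test). H2-DMb1 followed at 1.87 and Cd74 at 1.70 times the trend, and H2-DMa was lowest at 1.08. Among the ratios of all 13625 tested genes, H2-Ob stood at percentile 91.1 and H2-DMa at percentile 57.6, with the other members between them. The median over the 7 was 1.44, and over all tested genes it was 0.878.

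**Figure D5:**
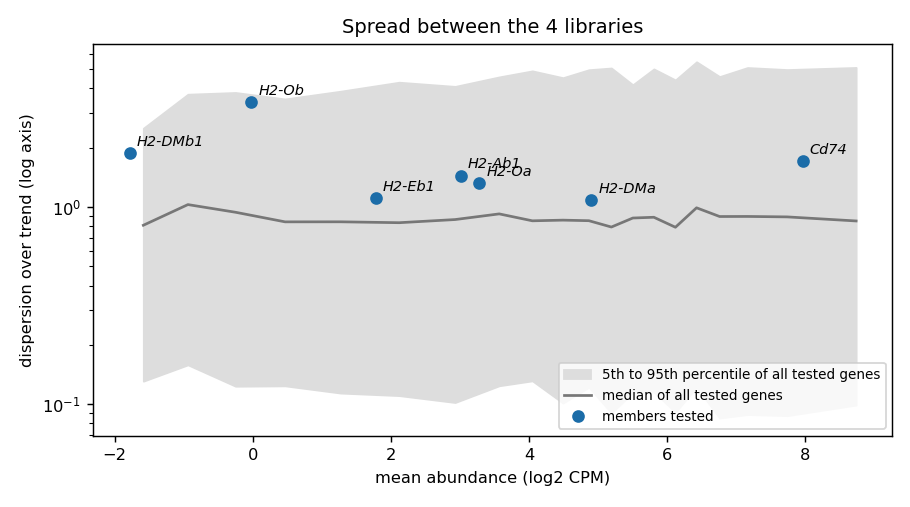
Dispersion between the 4 libraries over the trend (vertical log axis) against mean abundance in log2 CPM, with the 7 members tested as points, the median of all tested genes as a line and their 5th to 95th percentile in grey. H2-Ob lay highest at 3.41, percentile 91.1 of all tested genes, and H2-DMa lowest at 1.08, percentile 57.6. The overall median was 0.878.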

How the data were processed

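The authors deposited unnormalized counts of paired fragments for each gene. Per the file headers, featureCounts 1.4.6-p4 counted fragments with both ends mapped on GENCODE M13 exons of mm10, with strand setting 2. How reads were aligned is not stated there. Total RNA-seq is the assay name in the labels, while the linked library protocol is for poly(A)+ RNA. TPM was computed from counts and the deposited exon lengths. Of 50600 genes, 50376 matched a symbol. Replicate libraries were not copies of each other, with a chi-square over its degrees of freedom of at least 16.9 in each pair. Members and lists were chosen with earlier results of these data known. Named genes are all members, the 2 highest and the lowest of each list, and the 3 genes nearest to Cd74. Others, including Foxp3, further markers, the region's neighbours and genes at 0, were named after their values were seen. Some list members are not reported here. Member pairs were compared as differences of log2(TPM + 0.1). The test of spread used R 4.3.3 and edgeR 4.0.16 (TMM, filterByExpr, robust prior, Benjamini-Hochberg over all tested genes). It was checked on simulated counts with changes planted in replicate 3 only. Alternatives used DESeq2 1.42.0 and limma 3.58.1. Tables and plots used Python 3.11.15, pandas 2.3.3, scipy 1.17.1 and matplotlib 3.10.9.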

Additional observations from a re-analysis of the deposited data

Results flagged for a closer look

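Of 71 genes examined, 6 had 1 library far from the other 3 by Dixon's test, which chance passes in about 1 in 20 groups. None of the 9 members was among them. Replicate 2 was highest for the interferon gamma receptor gene Ifngr1 at 66.9 TPM and for Jak1 at 219 TPM, and replicate 4 for the protease gene Lgmn at 29.3 TPM. The other 3 were markers of other cells with at most 3 counts in any library. Ms4a1 and Fcer2a had counts in 1 library only, a pattern that passes this test whatever the count. The rate of 1 in 20 does not hold for counts this low. Ms4a1 was highest at 0.0214 TPM in replicate 4, Fcer2a at 0.00905 TPM in replicate 1 and Mertk at 0.0383 TPM in replicate 2.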

How the results depend on the processing

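As TMM-scaled FPKM, put on the TPM scale by the totals over all genes, 9 of 9 member levels stayed within 1 SD of the reported mean. FPKM and TPM differ only by a factor per library, so these means could hardly move and say little about how firm the levels are. Without 1 library, only the mean of H2-Aa moved by over 1.5 times, to 0.0583 TPM without replicate 1, against 0.0922 TPM. At thresholds of 0.5 and 5 TPM, 5 members passed in every library, as at 1 TPM. The share over all protein-coding genes, 48.9%, was taken at 1 TPM only. None of the 7 pair differences changed sign under a pseudocount of 1 TPM, without length normalization or without any 1 library. With a pseudocount of 1 TPM the log2 differences were 9.17 for Cd74 minus Ciita, -4.01 for H2-Aa minus H2-Ab1, 5.27 for H2-DMa minus H2-DMb1 and 3.67 for H2-Oa minus H2-Ob. Without length normalization they were 4.94 for Cd74 minus H2-Ab1, 10.6 for Cd74 minus Ciita, -1.22 for H2-Eb1 minus H2-Ab1, 3.26 for H2-Oa minus H2-Ob and 1.62 for H2-DMa minus H2-Oa. Leaving out each replicate gave 5.09 to 5.23 for Cd74 minus H2-Ab1, 11.9 to 12.2 for Cd74 minus Ciita, -6.84 to -6.22 for H2-Aa minus H2-Ab1, -0.90 to -0.64 for H2-Eb1 minus H2-Ab1, 6.25 to 6.71 for H2-DMa minus H2-DMb1, 4.31 to 4.72 for H2-Oa minus H2-Ob and 1.26 to 1.34 for H2-DMa minus H2-Oa. Over all genes, 98 of 23106 varied with no filter, where all 9 members were tested. DESeq2 called 43 of 13625 genes dispersion outliers, with 7 members tested. Leaving out each replicate gave 1 to 18 genes, the highest without replicate 2, with 6 or 7 members tested. No member was called under any of these alternatives. With so few genes called, 0 members is what the background gives and does not show that the members were stable. Counts of 28 or fewer per library limit what can be said of Ciita, H2-Aa and H2-DMb1. No paired analysis was possible because there is 1 group.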
